A study of Mus musculus with 12 samples.

Results

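The axon guidance ligands and receptors of the mouse were examined here as 68 protein-coding genes among the 17579 genes of the deposited count table. They were chosen by gene family, from their symbols, and not by a threshold on measured values. The set held 20 semaphorins with 9 plexins and 2 neuropilins, 5 ephrin-A and 3 ephrin-B ligands with 9 EphA and 5 EphB receptors, 3 Slits with 4 Robos, and 2 netrins with 6 netrin receptors. This made 33 ligands and 35 receptors.

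The genes were measured by RNA-seq in 4 groups of 3 libraries, namely R6/1 retina, wt retina, R6/1 striatum and wt striatum. R6/1 mice carry exon 1 of the human huntingtin gene with an expanded CAG repeat, driven by the human huntingtin promoter, and model Huntington's disease, and wt mice were their littermates without the transgene. All mice were untreated males on the C57Bl/6 background aged 13 to 15 weeks, and the retina and striatum came from the same mice. Each library was a pool of RNA from several mice, so n counts pools and the spread between libraries is a spread between pools. The transgene itself was not analysed here.

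Axon guidance molecules are cues and receptors that steer growing axons in the embryo and later shape synapses, layers and blood vessels. Slits bind Robo receptors and repel axons, netrins attract them through Dcc and repel them through Unc5 receptors, semaphorins signal through plexins with or without a neuropilin, and ephrins on one cell bind Eph receptor tyrosine kinases on the next. In the visual system they guide the axons of retinal ganglion cells to their targets and help neurites find their layer in the retina. In the striatum they organise the inputs of medium spiny neurons, the main cell type of this nucleus.

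The upstream sequence of Slit2 and Efna3 is given first. Slit2 was the ligand with the smallest p in the R6/1 retina. Efna3 was the only guidance gene that passed the genotype test in both tissues in the main fits, of each tissue alone. Other fits called other genes in both tissues, as given below. Each sequence covers the 250 bases before a RefSeq start site on GRCm38.p6, read 5′ to 3′ on the strand of the gene, at chr5:47982905-47983154 on the plus strand for Slit2 and at chr3:89322940-89323189 on the minus strand for Efna3. Efna3 has 2 RefSeq starts, and the one shown is that whose first bases are found in a GENCODE transcript. GENCODE M21 places exons of the gene over 17 of the 250 bases for Slit2 and over 26 for Efna3. The windows of Slit3 and Epha10 are not shown because 232 and 250 of their bases lie in annotated exons. Capitals mark the GC box letters GGGCGG, or CCGCCC on the other strand, and the TATA box letters TATAAA, or TTTATA on the other strand.
Slit2: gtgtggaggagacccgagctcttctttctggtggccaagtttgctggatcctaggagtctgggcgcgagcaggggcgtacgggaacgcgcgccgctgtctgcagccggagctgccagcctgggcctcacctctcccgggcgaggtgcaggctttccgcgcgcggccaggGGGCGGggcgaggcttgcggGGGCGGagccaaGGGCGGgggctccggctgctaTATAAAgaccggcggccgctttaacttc
Efna3: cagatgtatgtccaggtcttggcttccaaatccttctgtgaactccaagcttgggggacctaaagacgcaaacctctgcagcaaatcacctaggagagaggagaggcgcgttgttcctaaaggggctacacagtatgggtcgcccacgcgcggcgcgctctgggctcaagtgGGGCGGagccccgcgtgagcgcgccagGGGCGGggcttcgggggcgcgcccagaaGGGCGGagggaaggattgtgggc

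Slit2 held 3 GC boxes and 1 TATA box in this window, and Efna3 held 3 GC boxes and no TATA box. RefSeq promoters were matched by symbol for 58 of the 68 genes, with 74 start sites. A GC box was in 71.6% of these 74 windows, against 42.6% of 21263 windows of protein-coding genes and 32.7% of all 32851 windows of this length. A TATA box was in 2.70% of the 74 windows, against 11.6% of those of protein-coding genes and 12.4% of all. These matches describe letters and not binding sites.

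Total counts were between 14070445 and 22432431 per library. The 68 genes took 0.173 to 0.202% of the counts in the retina and 0.289 to 0.315% in the striatum. Levels are given as CPM (counts scaled to a common library size, with TMM factors over all 12 libraries). The tissue labels fitted their markers: 8 cone markers summed to 133 CPM or more in every retina and to 2.81 CPM or less in every striatum, and Ppp1r1b, a marker of medium spiny neurons, was at 173 CPM or more in every striatum and at 8.34 CPM or less in every retina. Some libraries stood apart. The summed level of 7 cortical excitatory neuron markers was 277, 366 and 388 CPM in the R6/1 striata, against 645, 289 and 747 CPM in the wt striata, so that wt replicate 2 lay with the R6/1 libraries. The summed level of 14 medium spiny neuron markers was 2754, 1530 and 2703 CPM in the R6/1 striata, against 5802, 4276 and 4729.5 CPM in the wt striata. Lens markers summed to 622 CPM in R6/1 retina replicate 3, against 55.5 CPM or less in each of the other 5 retinas. Retinal pigment epithelium markers summed to 139 CPM in R6/1 striatum replicate 3, against 19.7 CPM or less in each of the other striata. The part of these differences in the results below was not tested, and results that rest on the striatal libraries numbered 2 are also given without them.

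In the R6/1 retina, more guidance genes were lower than higher. Of the 67 genes tested, 14 were lower and 6 were higher than in the wt retina (edgeR's quasi-likelihood test, adjusted p under 0.05 by Benjamini-Hochberg over all genes). Plxnb3 could not be tested because it is listed at 0 in all 6 retinas. The lower genes were 20.9% of those tested, against 12.7% of all 16582 genes, and the higher ones 8.96%, against 9.58% of all genes. The share of higher genes was thus close to that of the transcriptome and the share of lower genes was above it. The share over all genes depends on the filter: with a stricter filter on low counts, 15.4% of 14413 genes were lower and 11% were higher. The median log2 fold change was -0.02 over the 67 genes and 0.01 over all genes. Ligands were lower in 9 and higher in 3 of 33, and receptors were lower in 5 and higher in 3 of 34. The R6/1 and wt libraries did not overlap for 27 of the 67 genes, or 40.3%, against 38.4% of all genes, and these 27 included 18 of the 20 genes that passed.

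**Figure D1:**
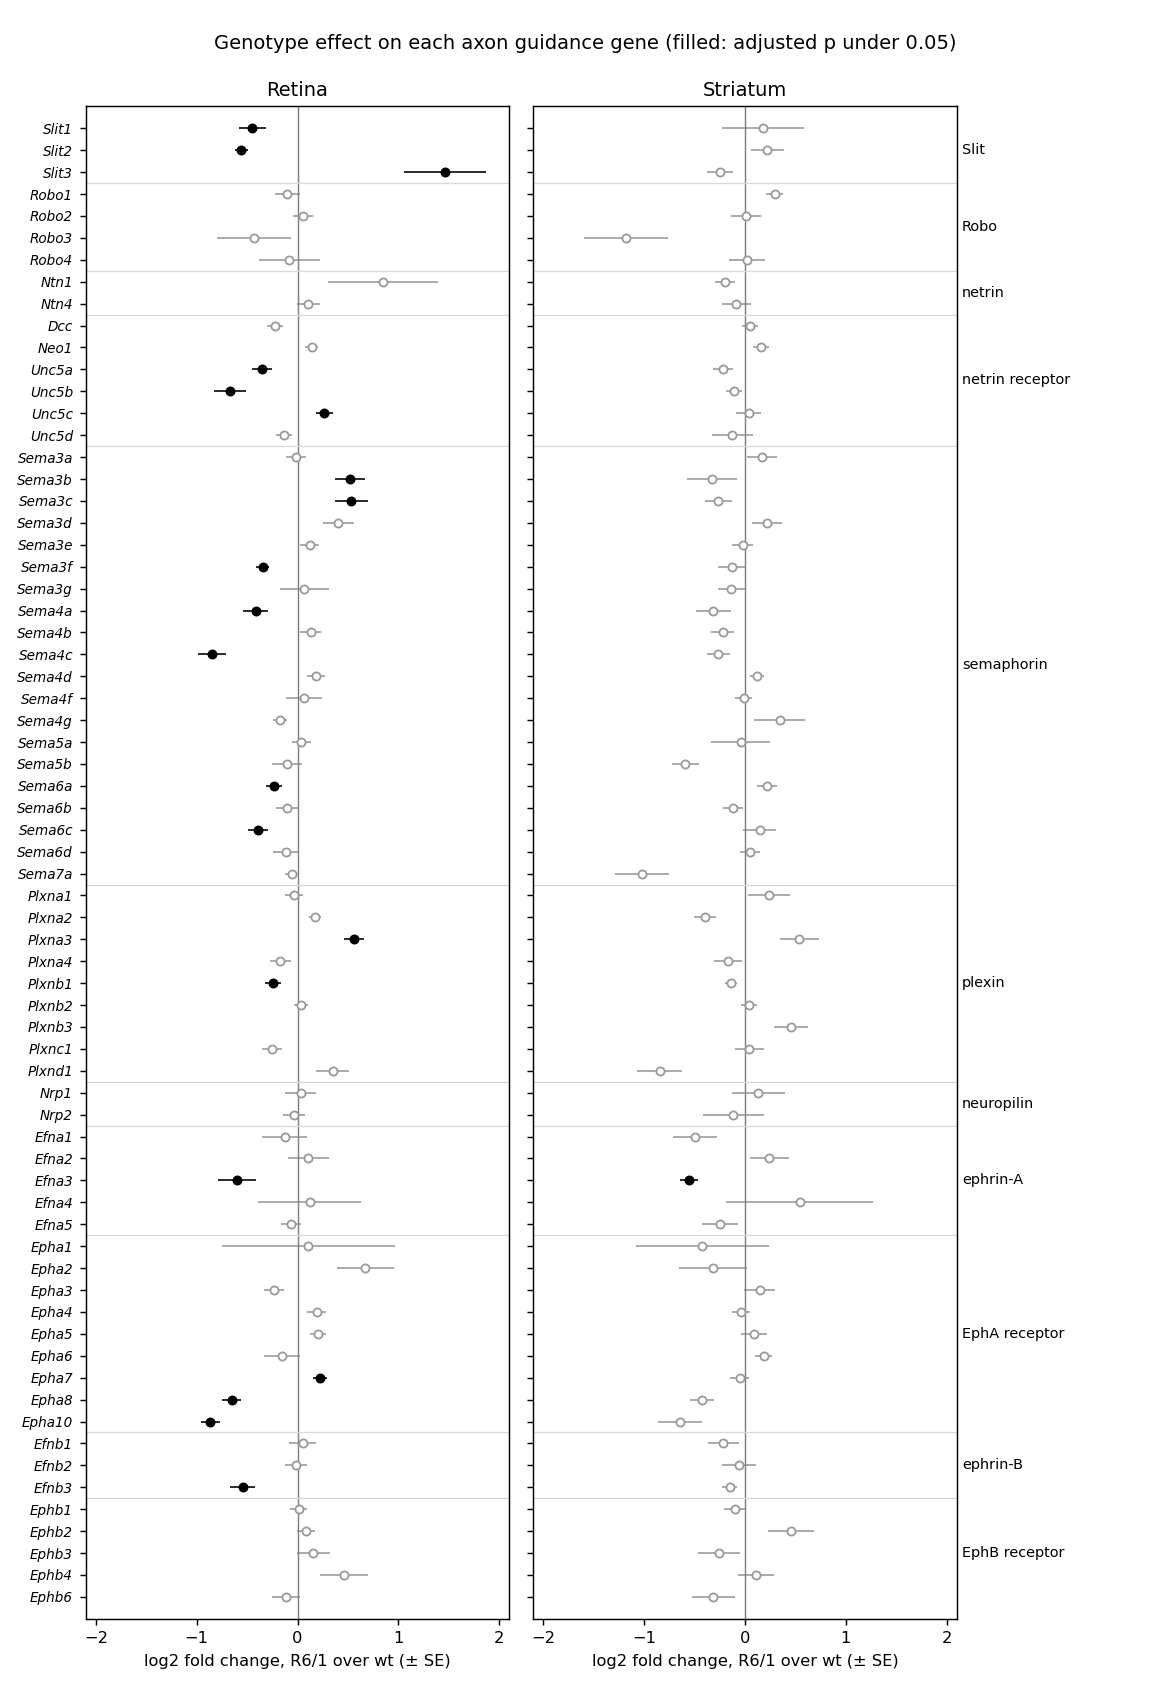
Log2 fold change of R6/1 over wt in the retina (left) and the striatum (right) for each guidance gene, grouped by family, with its SE as a bar and n = 3 pools per group. Filled points passed at an adjusted p under 0.05, which holds for 20 genes in the retina and for Efna3 alone in the striatum, and Plxnb3 has no retinal point because it is listed at 0 there.

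The split between lower and higher genes depended on the scaling. With library totals in place of TMM factors, the median of all genes in the retina moved to 0.13 on the log2 scale, and 8 guidance genes were lower (8.71% of all genes were) and 13 were higher (23.4% of all genes). The 8 were Epha10, Slit2, Epha8, Sema4c, Unc5b, Sema3f, Efnb3 and Sema6c, all of which were lower with TMM factors as well. None of the 20 genes changed the sign of its fold change under any setting tried. Values below are with TMM factors.

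All 3 Slits passed edgeR's test in the retina, and they did not move together. DESeq2 called Slit2 but neither Slit1 nor Slit3. Slit2, a repellent for retinal ganglion cell axons that acts at the optic chiasm, was at 95.6, 110 and 108 CPM in the R6/1 retinas, against 156, 150 and 165 CPM in the wt retinas. It was lower in every R6/1 library than in any wt library, by -0.56 ± 0.07 on the log2 scale (SE derived from the test, n = 3 pools each, edgeR adjusted p = 7.69e-06), which is 1.47-fold. Slit1 was at 7.86, 7.46 and 9.58 CPM in the R6/1 retinas, against 10.04, 11.9 and 12.7 CPM in the wt retinas, a log2 fold change of -0.45 ± 0.13 (edgeR adjusted p = 0.0228). The R6/1 and wt values of Slit1 lay close to each other at their edges but did not overlap. Slit3, the third ligand of the family, went the other way, at 1.15, 1.13 and 1.05 CPM in the R6/1 retinas, against 0.536, 0.293 and 0.393 CPM in the wt retinas. Its fold change of 1.46 ± 0.41 on the log2 scale (edgeR adjusted p = 0.0159) rested on 21, 22 and 19 counts in the R6/1 libraries, against 8, 4 and 7 counts in the wt libraries. Summed over the family, Slit transcripts were at 114 ± 7.997 CPM in the R6/1 retina and 169 ± 8.21 CPM in the wt retina (SD, n = 3 pools each), nearly all of it Slit2. None of the 4 Robo receptors passed. Robo2, by far the most abundant of them, was at 96.2, 107 and 126 CPM in the R6/1 retinas, against 104, 99.4 and 121 CPM in the wt retinas, and the groups overlapped.

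Of the 20 semaphorins, 5 were lower and 2 were higher in the R6/1 retina. The transmembrane ligand Sema4c, which binds Plexin-B2, was at 6.33, 5.97 and 5.04 CPM in the R6/1 retinas, against 12.1, 9.44 and 10.4 CPM in the wt retinas. Its log2 fold change of -0.85 ± 0.14 (edgeR adjusted p = 0.000322) was the lowest among the ligands, and its groups did not overlap. Sema3f, a secreted ligand of neuropilin-2, was at 70.1, 69.3 and 65.6 CPM in the R6/1 retinas, against 88.4, 92.9 and 84.6 CPM in the wt retinas. The change of Sema3f was smaller, -0.34 ± 0.06 on the log2 scale (edgeR adjusted p = 0.000972), but both groups were tight. The class 6 transmembrane ligand Sema6c was at 16.5, 15.2 and 16.2 CPM in the R6/1 retinas, against 19.5, 24.4 and 20.4 CPM in the wt retinas (log2 fold change -0.39 ± 0.10, edgeR adjusted p = 0.0113). Sema4a, whose loss in mice causes photoreceptors to degenerate, was at 6.27, 6.53 and 6.76 CPM in the R6/1 retinas, against 8.50, 8.56 and 9.60 CPM in the wt retinas (-0.42 ± 0.13, adjusted p = 0.0275). Neither Sema6c nor Sema4a overlapped between genotypes. Sema6a, a ligand of Plexin-A2 and Plexin-A4 that helps retinal neurites keep to their layer, also passed, with a log2 fold change of -0.24 ± 0.08 (edgeR adjusted p = 0.0427).

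The higher semaphorins were both secreted class 3 ligands. Sema3b was at 6.66, 7.36 and 7.70 CPM in the R6/1 retinas, against 5.62, 5.34 and 4.49 CPM in the wt retinas, and the groups did not overlap (log2 fold change 0.52 ± 0.15, edgeR adjusted p = 0.0171). Sema3c was at 11.3, 12.6 and 9.53 CPM in the R6/1 retinas, against 10.04, 6.44 and 7.07 CPM in the wt retinas, so that R6/1 replicate 3 lay below wt replicate 1 (0.53 ± 0.16, adjusted p = 0.0285). Among the 8 ephrins, 2 passed and both were lower. Efnb3, a transmembrane ligand that also engages EphA4, was at 11.8, 11.7 and 12.6 CPM in the R6/1 retinas, against 17.5, 21.5 and 14.9 CPM in the wt retinas (-0.54 ± 0.12, edgeR adjusted p = 0.00423). The membrane-anchored ligand Efna3 was at 3.38, 3.96 and 4.71 CPM in the R6/1 retinas, against 4.89, 7.39 and 6.40 CPM in the wt retinas (-0.60 ± 0.19, edgeR adjusted p = 0.0276). In both ephrins every R6/1 value was below every wt value, with the spread larger in wt than in R6/1. Neither netrin passed, and Ntn1 had only 2 to 18 counts per retinal library.

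**Figure D2:**
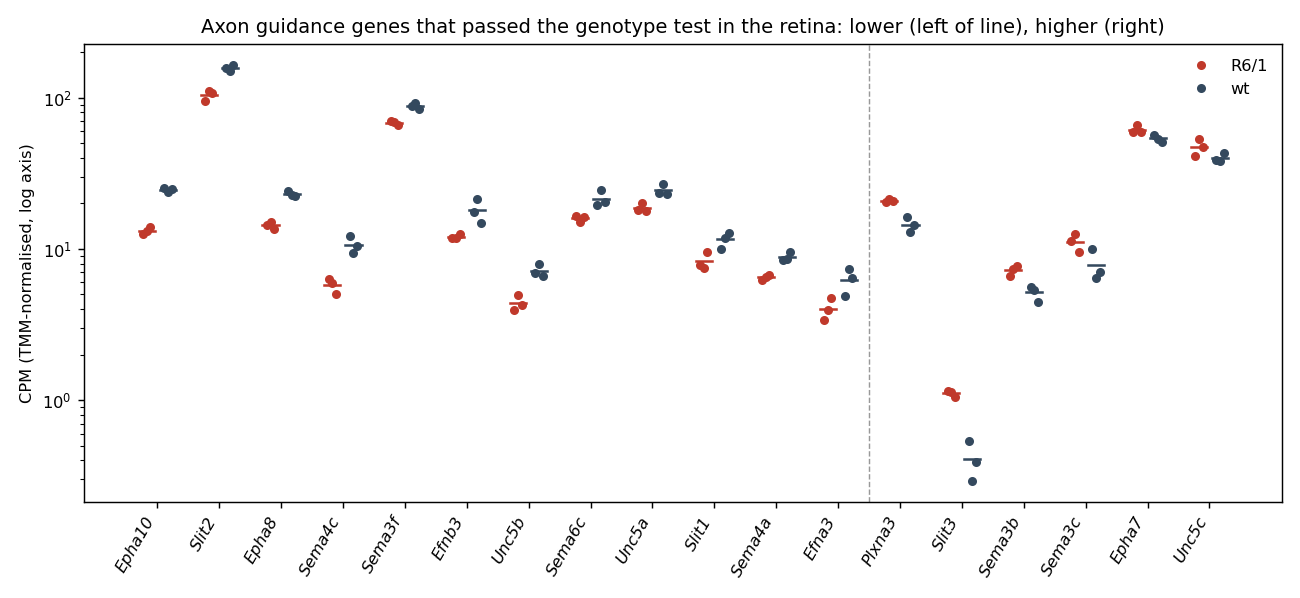
CPM of 18 guidance genes in each retinal library on a log axis, R6/1 in red and wt in blue, with the group mean as a line. The 12 genes left of the dashed line were lower and the 6 right of it were higher in the R6/1 retina, and Sema3c and Unc5c are the ones whose groups overlap.

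Among the receptors, Epha10 and Epha8 gave the clearest differences. Epha10, an Eph receptor without kinase activity, was at 12.5, 13.1 and 14.01 CPM in the R6/1 retinas, against 25.1, 23.8 and 25.0 CPM in the wt retinas. It was 1.82-fold lower, -0.87 ± 0.09 on the log2 scale (edgeR adjusted p = 2.88e-06), with a gap between the groups many times the spread within them. Epha8 was at 14.4, 15.2 and 13.6 CPM in the R6/1 retinas, against 24.0, 22.8 and 22.5 CPM in the wt retinas (-0.65 ± 0.09, edgeR adjusted p = 6.98e-05). Epha7, which helps to set the order of retinal projections, differed by much less and in the other direction, at 59.5, 65.7 and 59.2 CPM in the R6/1 retinas, against 57.1, 53.6 and 50.7 CPM in the wt retinas (0.22 ± 0.07, edgeR adjusted p = 0.0315). The summed level of the 9 EphA receptors was 259 ± 18.4 CPM in the R6/1 retina and 258 ± 5.38 CPM in the wt retina (SD, n = 3 pools each). None of the 5 EphB receptors passed, and their log2 fold changes were between -0.11 and 0.46.

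The netrin receptors split as well. Unc5b, a repulsive netrin receptor also known from endothelial cells, was at 3.93, 4.94 and 4.27 CPM in the R6/1 retinas, against 6.90, 7.90 and 6.62 CPM in the wt retinas (log2 fold change -0.67 ± 0.16, edgeR adjusted p = 0.0047). Unc5a was at 18.1, 20.3 and 17.8 CPM in the R6/1 retinas, against 23.5, 26.8 and 23.1 CPM in the wt retinas (-0.35 ± 0.10, edgeR adjusted p = 0.0137). Unc5c was higher, at 40.9, 53.0 and 47.3 CPM in the R6/1 retinas, against 38.8, 38.3 and 42.8 CPM in the wt retinas, with R6/1 replicate 1 below wt replicate 3 (0.27 ± 0.09, edgeR adjusted p = 0.0394). Dcc, the attractive netrin receptor, stayed above the threshold at -0.22 ± 0.08 (adjusted p = 0.0614). Among the plexins, Plxna3, a receptor for class 3 semaphorins, was at 20.5, 21.3 and 20.8 CPM in the R6/1 retinas, against 16.2, 12.9 and 14.3 CPM in the wt retinas (0.56 ± 0.10, edgeR adjusted p = 0.000673). Its 3 R6/1 values were all above the wt values and closer together. Plxnb1, the receptor of Sema4d, was slightly lower at -0.24 ± 0.08 (adjusted p = 0.0418). The neuropilins Nrp1 and Nrp2 had log2 fold changes of 0.03 ± 0.15 and -0.04 ± 0.11 and did not pass.

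Of these 20 calls, 8 held whichever library was left out, namely Epha10, Slit2, Epha8, Sema4c, Plxna3, Sema3f, Efnb3 and Unc5b, with adjusted p-values up to 0.0319. Sema6c lost its call without wt replicate 2 (adjusted p = 0.0687), and Slit3 without wt replicate 2 or 3 (up to 0.0619). Unc5a lost it when either wt replicate 2 or R6/1 replicate 3 was left out (up to 0.0760), and Sema3b without replicate 3 of either genotype (up to 0.0886). For Efna3 this held for wt replicates 2 and 3 and R6/1 replicate 1 (up to 0.140), and for Epha7 it held for replicate 2 of both genotypes and wt replicate 3 (up to 0.131). Of the 6 cases, Slit1 kept its call only without wt replicate 1 or R6/1 replicate 3, Sema4a without replicate 2 of either genotype, and Sema3c without wt replicate 1 or R6/1 replicate 3. Unc5c kept it only without wt replicate 3 or R6/1 replicate 1, Plxnb1 without wt replicate 3 or R6/1 replicate 2, and Sema6a without R6/1 replicate 2. The highest adjusted p over these 6 genes was 0.195. The count of lower genes was 8 without wt replicate 2 (10.3% of all genes were lower) and 9 without R6/1 replicate 1 (11.1% of all genes). The count of higher genes was 2 without wt replicate 2 or 3 (6.85% and 6.71% of all genes were higher) and 3 without R6/1 replicate 2 (9.19%).

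Retinal cell type markers moved with the genotype too. The summed level of 8 cone markers was between 133 and 154 CPM in the R6/1 retinas, against 1094 to 1241 CPM in the wt retinas, and all 8 were lower. All 10 rod markers, 8 of 9 bipolar markers, 6 of 8 amacrine markers, 3 of 4 horizontal cell markers and 7 of 10 ganglion cell markers were lower. The other bipolar marker was higher, as were 4 of 8 microglial, 2 of 7 astrocyte and 1 of 7 oligodendrocyte markers. Müller glia markers were 1 lower and 2 higher of 8, and endothelial and pericyte markers 1 lower and 2 higher of 9. None of the retinal pigment epithelium or lens markers passed. The ganglion cell markers summed to between 593 and 698 CPM in the R6/1 retinas, against 921 to 963 CPM in the wt retinas. With TMM factors computed without the rod and cone markers, the counts of guidance genes were again 14 lower and 6 higher, against 12.7% and 9.56% of all genes. Leaving out these few markers hardly moved the scaling, with a median log2 fold change over all genes of 0.0131, against 0.0135 with them. The like counts therefore say nothing about the marker shifts. In bulk RNA, fewer cells of a type and less RNA per cell cannot be told apart, and the part of the marker shifts in these results was not tested.

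In the striatum, Efna3 was the only guidance gene to pass in the main fit, of this tissue alone and without a replicate block. It was at 22.3, 23.8 and 24.3 CPM in the R6/1 striata, against 35.0, 30.8 and 37.3 CPM in the wt striata, and the groups did not overlap (log2 fold change -0.55 ± 0.09, edgeR adjusted p = 0.0281). This was 1 of 68 genes tested, or 1.47%, against 1.45% of all genes, of which 1.32% were lower and 0.132% higher. At an unadjusted p under 0.05, 14 of the 68 (20.6%) differed, against 19.8% of all genes. DESeq2 called 7 lower and 0 higher, against 4.81% and 1.06% of all genes. The groups did not overlap for 15 genes, or 22.1%, against 25.6% of all genes. The median log2 fold change was -0.07 over the 68 genes and 0.01 over all genes. Replicates 1 and 3 of both genotypes were each needed for the call of Efna3: leaving out any one of these 4 libraries gave an adjusted p of up to 0.166 and a count of 0 lower genes. In these 4 fits only 0.00602 to 0.157% of all genes were lower, so calls were lost across all genes and not for Efna3 alone.

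Several guidance genes that did not pass had larger differences in the striatum than Efna3 and a wider spread. Sema7a, a membrane-anchored ligand of Plexin-C1 and integrins, was at 47.2, 42.7 and 54.6 CPM in the R6/1 striata, against 98.6, 63.0 and 131 CPM in the wt striata (log2 fold change -1.02 ± 0.27, edgeR adjusted p = 0.122). Plxnd1, the receptor of Sema3e that medium spiny neurons of the direct pathway express, was at 69.4, 43.1 and 68.0 CPM in the R6/1 striata, against 123, 84.99 and 115 CPM in the wt striata (-0.85 ± 0.22, edgeR adjusted p = 0.118). Neither gene overlapped between genotypes, and in both the libraries numbered 2 were the lowest of their group. Sema5b was at 13.5, 12.7 and 13.5 CPM in the R6/1 striata, against 21.2, 15.9 and 22.7 CPM in the wt striata (-0.59 ± 0.13, edgeR adjusted p = 0.0684). Plxna2 was at 120, 114 and 138 CPM in the R6/1 striata, against 163, 142 and 184 CPM in the wt striata (-0.39 ± 0.11, edgeR adjusted p = 0.107). Both were lower in every R6/1 library than in any wt library, though the difference of Plxna2 was smaller than that of Efna3.

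Robo3 had the lowest fold change of the set, at 3.22, 4.26 and 4.12 CPM in the R6/1 striata, against 5.98, 5.45 and 15.1 CPM in the wt striata (log2 fold change -1.18 ± 0.42, edgeR adjusted p = 0.190). Its groups did not overlap, and wt replicate 3 was far above the other wt libraries. Epha10 was at 13.3, 20.4 and 13.9 CPM in the R6/1 striata, against 28.3, 18.5 and 28.2 CPM in the wt striata, and the groups overlapped through the libraries numbered 2 (-0.64 ± 0.22, edgeR adjusted p = 0.177). Plxna3, higher in the R6/1 retina, was at 18.3, 25.9 and 23.4 CPM in the R6/1 striata, against 11.8, 19.4 and 15.2 CPM in the wt striata, where the groups overlapped (0.54 ± 0.19, edgeR adjusted p = 0.185).

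The striatal libraries with the same replicate number deviated together, and the number was therefore also fitted as a block. R6/1 replicate 3 and wt replicate 1 did so as well (correlation 0.240), so whether the number marks a pairing is not settled. With the block, 7 genes were lower (7.11% of all genes were) and 1 was higher (2.83% of all genes). The lower ones were Plxnd1 (log2 fold change -0.86 ± 0.07, adjusted p = 2.92e-05), Plxna2 (-0.39 ± 0.06, 0.00174), Efna3 (-0.55 ± 0.08, 0.00214), Sema5b (-0.58 ± 0.11, 0.00744), Ephb6, Sema7a (-0.97 ± 0.15, 0.0247) and Epha8, and the higher one was Plxna3 (0.55 ± 0.10, 0.00493). With the block, Epha8 (-0.43 ± 0.12, 0.0492) and Plxna3 thus passed in both tissues as Efna3 did. DESeq2 without the block also called 7 lower, namely Sema7a, Plxnd1, Efna3, Sema5b, Robo3, Plxna2 and Epha10, and none higher, against 4.81% lower and 1.06% higher of all genes. With DESeq2, Epha10 was lower in both tissues, Plxna2 was higher in the retina and lower in the striatum, and Efna3 did not pass in the retina. In a single fit of all 12 libraries without the block, Epha8 and Epha10 passed in both tissues as Efna3 did.

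Wt replicate 2 and R6/1 replicate 2 each moved the striatal counts. Without wt replicate 2, which had the lower cortical markers, 7 guidance genes were lower (7.25% of all genes) and 4 were higher (4.32% of all genes). Without R6/1 replicate 2 the lower ones were Nrp2 and Efna3, and none was higher (1.31% and 0.176% of all genes). R6/1 replicate 2 had Nrp2, the co-receptor of class 3 semaphorins, at 65.2 CPM, against 28.4 and 34.7 CPM in the other R6/1 striata and 49.5, 44.2 and 45.7 CPM in the wt striata. It was also the highest library for Slit1 at 56.9 CPM, against 20.5 and 26.1 CPM in the other R6/1 striata and 24.9, 38.7 and 28.2 CPM in the wt striata. The same held for Sema5a, at 70.2 CPM in that library, against 31.6 and 38.2 CPM in the other R6/1 striata and 44.7, 51.8 and 48.1 CPM in the wt striata. With both libraries numbered 2 left out, an alternative chosen after seeing the data, 13 genes were lower and 5 higher, against 10.2% and 6.21% of all genes. In that fit Plxnd1 (-0.79 ± 0.07), Epha10 (-1.05 ± 0.10), Efna3 (-0.63 ± 0.09) and Sema5b (-0.70 ± 0.11) had the smallest p among the lower genes, and Robo1 (0.42 ± 0.07) and Plxnb3 (0.66 ± 0.12) among the higher ones. The part of cortical tissue and of medium spiny neuron content in these values was not tested.

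**Figure D3:**
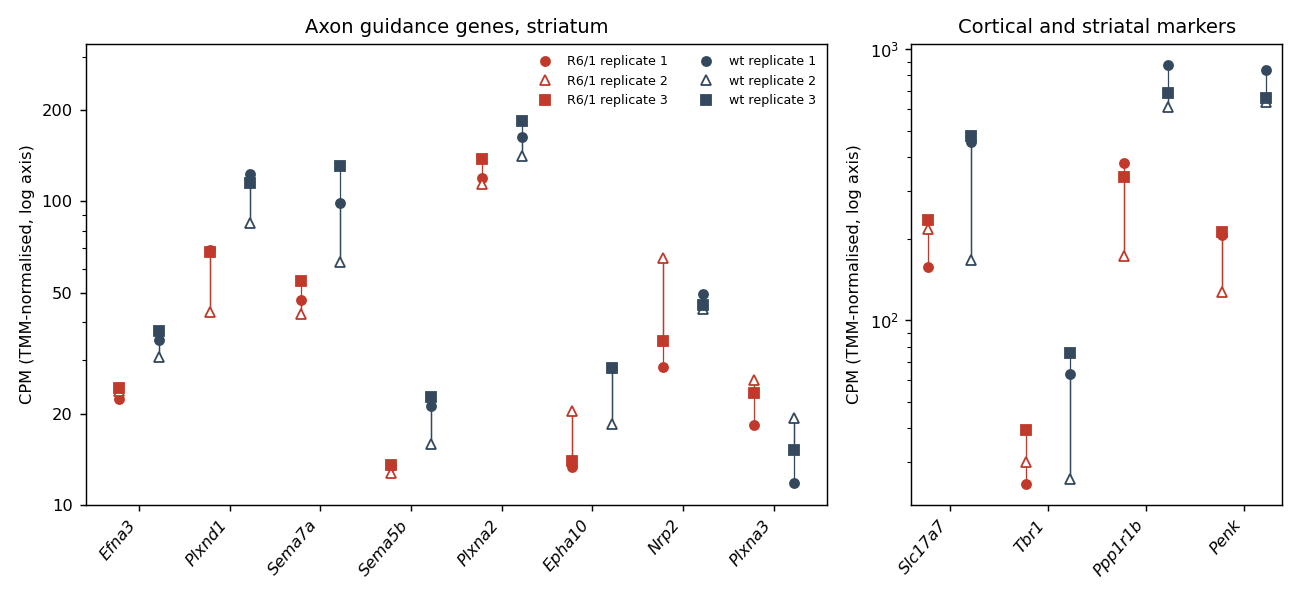
CPM in each striatal library on a log axis for 8 guidance genes (left) and for cortical and striatal markers (right), R6/1 in red and wt in blue, with the replicate number as the marker shape. Efna3 separates the genotypes with little spread. Wt replicate 2 is the wt library nearest to the R6/1 libraries for Efna3, as it is for Sema7a, Plxnd1 and Slc17a7, and R6/1 replicate 2 is highest for Nrp2.

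The genotype effects in the 2 tissues were compared by an interaction term. Of 67 genes tested, 3 had a lower and 2 a higher effect in the retina than in the striatum, 7.46% in all, against 8.24% of all genes (4.86% lower and 3.38% higher). Slit3 had the largest difference, 1.67 ± 0.34 on the log2 scale (edgeR adjusted p = 0.00739), and its striatal values were 31.9, 24.6 and 34.2 CPM in R6/1, against 34.8, 33.5 and 39.2 CPM in wt. Slit2 differed by -0.82 ± 0.19 (edgeR adjusted p = 0.0211), being at 26.9, 39.4 and 30.8 CPM in the R6/1 striata, against 23.0, 27.9 and 32.5 CPM in the wt striata. The groups of both genes overlapped in the striatum while they did not in the retina. Plxna2 differed by 0.53 ± 0.13 (edgeR adjusted p = 0.0212), with retinal values of 160, 183 and 170 CPM in R6/1, against 159, 155 and 151 CPM in wt.

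Unc5b and Sema6a completed the genes that differed between tissues. Unc5b differed by -0.59 ± 0.15 (edgeR adjusted p = 0.0283), with striatal values of 28.9, 32.7 and 28.1 CPM in R6/1, against 31.6, 33.7 and 31.4 CPM in wt. Sema6a differed by -0.49 ± 0.14 (edgeR adjusted p = 0.0438), with striatal values of 49.5, 58.0 and 51.7 CPM in R6/1, against 41.7, 52.3 and 42.8 CPM in wt. Sema4c (-0.62 ± 0.18, adjusted p = 0.0503), Sema3b (0.81 ± 0.25, 0.0622) and Plxnd1 (1.17 ± 0.34, 0.0658) were just above the threshold. With the pool of mice as a block, taken as the genotype and replicate number, these 5 genes passed and so did Sema3c (0.79 ± 0.17, adjusted p = 0.0204, against 0.0697 without the block). That made 3 lower and 3 higher, against 4.04% and 3.09% of all genes. For Efna3 the difference was -0.08 ± 0.20 (adjusted p = 0.852), so that a difference between its retinal and striatal effects was not detectable in these pools. Slit3 passed whichever library was left out, but not with limma-voom (adjusted p = 0.105). Slit2 was lost without wt retina replicate 3 (0.0555), and Plxna2 without wt retina replicate 2 or 3, R6/1 retina replicate 2 or R6/1 striatum replicate 1 (up to 0.0569).

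The calls of the difference were less stable for the other genes. Unc5b kept its call only without wt retina replicate 3, R6/1 retina replicate 2, wt striatum replicate 2 or R6/1 striatum replicate 1 or 3 (adjusted p up to 0.0736 in the other cases). Sema6a kept it only without R6/1 retina replicate 2, wt striatum replicate 2 or R6/1 striatum replicate 1 (up to 0.108 in the others). The count of lower effects was 1 without wt retina replicate 1, R6/1 retina replicate 1 or 3, wt striatum replicate 1 or R6/1 striatum replicate 2. In these fits 2.84 to 4.46% of all genes had a lower effect. The count of higher effects was 1 without wt retina replicate 2 or 3, R6/1 retina replicate 2 or R6/1 striatum replicate 1 (2.21 to 2.56% of all genes). It was 6 without wt striatum replicate 2, a fit in which 4 genes had a lower effect (7.01% of all genes were lower and 5.76% higher). Leaving out both striatal libraries numbered 2 gave 5 lower and 6 higher, against 7.24% and 6.54% of all genes.

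**Figure D4:**
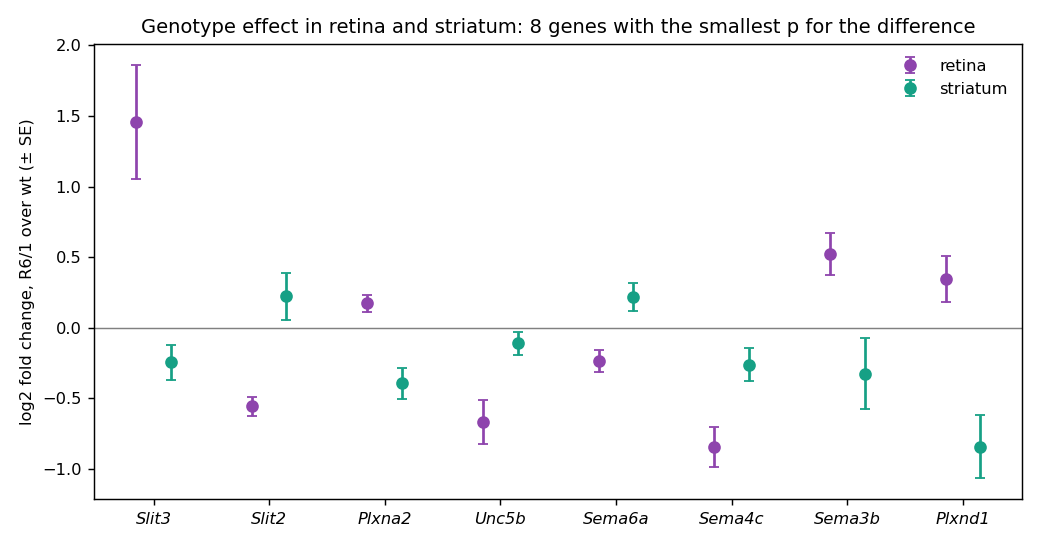
Log2 fold change of R6/1 over wt, with its SE, in the retina (purple) and the striatum (green) for the 8 guidance genes that ranked first by p in the interaction test, in rank order from the left (n = 3 pools per group). Slit3, Slit2, Plxna2, Unc5b and Sema6a passed the test of the difference.

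Most guidance genes were expressed less in the retina than in the striatum of wt mice. Of the 68, 44 were lower and 11 were higher in wt retina, 64.7% and 16.2%, against 38.5% and 37.8% of all genes. In either direction this was 80.9%, against 76.3% of all genes. The groups did not overlap for 56 of the 68 genes, or 82.4%, against 79.1% of all genes. Plxnb3, listed at 0 in every retina, is counted among both the 44 and the 56. The median log2 difference was -0.91 over the 68 genes and 0.00 over all genes. With R6/1 libraries in place of wt, 42 were lower and 12 higher, against 36.9% and 36.3% of all genes. All 4 Robos, both neuropilins, 13 of 20 semaphorins and 4 of 5 EphB receptors were lower in wt retina.

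Slit3 and Ntn1, both nearly absent from the retina, had the largest measured gaps. Slit3 averaged 0.407 ± 0.122 CPM in wt retina and 35.8 ± 2.98 CPM in wt striatum (SD, n = 3 pools each), a log2 difference of -6.43 ± 0.17 (edgeR adjusted p = 3.58e-11). Ntn1, the founding netrin, averaged 0.355 ± 0.181 CPM in wt retina and 17.9 ± 1.62 CPM in wt striatum (-5.59 ± 0.23, edgeR adjusted p = 1.25e-09). Plxnd1 averaged 8.12 ± 1.01 CPM in wt retina and 108 ± 20.1 CPM in wt striatum (-3.74 ± 0.17, edgeR adjusted p = 7.90e-08). Sema6d (-3.03 ± 0.11) and Robo3, which lets commissural axons cross the midline (-2.88 ± 0.51), came next among the lower genes named. Plxnb3, a receptor of Sema5a, is listed at 0 in all 6 retinas and was at 19.2, 32.2 and 24.7 CPM in the wt striata. The smallest sum above 0 over the 6 libraries of a tissue is 11 counts in the whole table, so a value of 0 may stand for a low count and no fold is given.

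The genes higher in wt retina were led by 2 ligands that were lower in the R6/1 retina. Sema3f averaged 88.6 ± 4.17 CPM in wt retina and 10.8 ± 1.47 CPM in wt striatum (3.04 ± 0.10, edgeR adjusted p = 1.48e-10). Slit2 averaged 157 ± 7.51 CPM in wt retina and 27.8 ± 4.80 CPM in wt striatum (2.50 ± 0.11, edgeR adjusted p = 6.01e-09). Sema3b (1.70 ± 0.20), Ephb2 (1.52 ± 0.13), Sema6c (1.33 ± 0.13) and Epha8 (1.12 ± 0.09) followed. Ephb2, an EphB receptor of ventral retina, did not differ detectably by genotype there, at 21.9, 25.1 and 23.6 CPM in the R6/1 retinas, against 24.0, 20.6 and 23.4 CPM in the wt retinas.

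**Figure D5:**
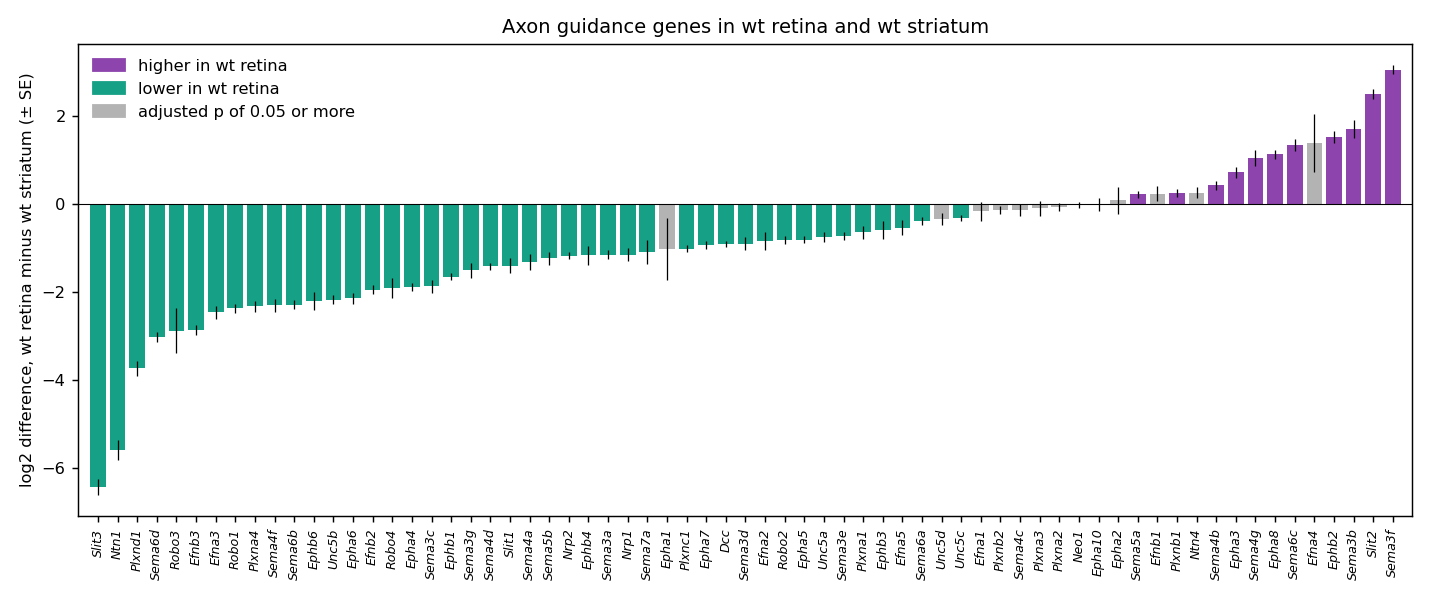
Log2 difference between wt retina and wt striatum, with its SE, for 67 guidance genes in order of size (n = 3 pools per group), and Plxnb3 is left out because it is listed at 0 in the retina. Purple and green bars passed at an adjusted p under 0.05, and Slit3 at -6.43 and Sema3f at 3.04 are the ends of the range.

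Per kilobase of transcript, the order of levels differed between tissues. In wt retina the highest levels were those of Sema3f (30.7 CPM per kb), Slit2 (18.9), Neo1, a netrin and RGM receptor (17.3), Robo2 (14.3) and Plxna2 (14.04). In wt striatum they were those of Epha4, which binds ephrins of both classes (47.6 CPM per kb), Efnb3 (40.7), Sema7a (29.6), Robo2 (25.5) and Epha5 (22.4). Robo2 was thus the only gene among the 5 highest in both tissues. Neo1 averaged 111 ± 2.86 CPM in wt retina and 112 ± 5.74 CPM in wt striatum, and its difference did not pass (-0.03 ± 0.07, edgeR adjusted p = 0.737). At the low end, Epha1 had at most 9 counts in any library and Efna4 at most 12, and no genotype difference in either was detectable at this depth.

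Other genes of the pathway were counted in the same fits. Among 40 further guidance ligands and adhesion receptors tested in the retina, 11 were lower and 6 higher in R6/1, and among 51 signal transduction genes 9 were lower and 8 higher. The shares of lower and higher genes in all genes were 12.7% and 9.58%, as above. Dscaml1, an adhesion molecule that spaces retinal neurites, averaged 93.1 ± 11.1 CPM in the R6/1 retina and 158 ± 14.6 CPM in the wt retina (SD, n = 3 pools each). Rgs3, which links ephrin-B reverse signals to G proteins, averaged 21.4 ± 1.76 CPM in the R6/1 retina and 40.2 ± 2.41 CPM in the wt retina. Rock2, a kinase that acts in growth cone collapse, was higher, at 254.96 ± 26.4 CPM in the R6/1 retina and 172 ± 10.3 CPM in the wt retina. All 3 passed in the retina. In the striatum none of 41 further ligands and adhesion receptors passed, and Dock4, an exchange factor for Rac, was the 1 of 51 signal transduction genes that did, at 133 ± 4.05 CPM in R6/1 and 182 ± 12.3 CPM in wt (log2 fold change -0.45 ± 0.07, edgeR adjusted p = 0.0235).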

How the data were processed

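RNA from pools of male R6/1 and wt retinas and striata was sequenced by the authors as stranded, paired-end mRNA libraries, trimmed with Trimmomatic and quantified with Salmon on GRCm38/mm10, whose versions are not given in the sources used here. The authors deposited expected counts (estimated counts per gene) as whole numbers, without normalisation and after removing genes with low counts in all samples. The counts were used as deposited. Symbols, lengths and positions came from GENCODE M21 for 17527 of 17579 genes.

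Genotypes were compared within each tissue, the genotype effects between tissues by an interaction term, and wt retina with wt striatum, with edgeR 4.0.16 (quasi-likelihood F test, robust, TMM factors, at least 10 counts over the 6 libraries, for the interaction in each tissue). P-values were adjusted by Benjamini-Hochberg over all genes and called below 0.05. The SE of a log2 fold change was derived from the test, as its absolute value divided by the square root of F. It thus rests on a spread that edgeR moderates over all genes. R 4.3.3, Python 3.11.15, pandas 2.3.3 and matplotlib 3.10.9 were used. CPM used TMM factors over all 12 libraries, and CPM per kb divided them by the mean length of the coding transcripts of a gene. The scripts were tested on simulated data.

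Alternatives were DESeq2 1.42.0, limma-voom 3.58.1, other scalings and filters, a non-robust spread, a single fit of all libraries, a replicate block, R6/1 in place of wt libraries for the tissue comparison and leaving out each library. The labels do not say what a replicate number marks. Deviations of same-numbered R6/1 and wt striata correlated at 0.274, 0.329 and 0.257 over 10445 genes, so the numbers were taken to pair the striata. R6/1 replicate 3 and wt replicate 1 of the striatum also correlated, at 0.240, and the other striata of unlike number at -0.389 to -0.042. The block in the striatum thus rests on a pairing that these values do not settle. In the retina the same-numbered values were 0.124, -0.094 and 0.051. Retina and striatum came from the same mice, and same-numbered libraries of the 2 tissues correlated at 0.242, 0.119 and 0.179 in R6/1 and at -0.026, 0.019 and 0.00076 in wt. The interaction was fitted without this pairing, and with the pool as a block as an alternative.

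Values were given for up to 12 lower and 8 higher genes that passed in each genotype comparison, the 8 ranked first by p in the interaction test, the 6 largest differences in each direction between tissues, the 5 highest levels per length, genes at 0 or at the ends of a range, binding partners of these, and up to 4 genes of each other pathway list. Sema5b, Sema5a, Nrp2, Robo1, Robo3 and Ephb6 in the striatum were chosen after their values were seen. The gene set, marker lists and pathway lists were chosen with earlier results of these data known. P-values rest on the spread between 3 pools per group, as moderated over all genes.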

Additional observations from a re-analysis of the deposited data

Results flagged for a closer look

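The genotype effect differed between retina and striatum for 5 guidance genes by the interaction test of edgeR (Benjamini-Hochberg over all genes). The effect of R6/1 over wt in the retina minus that in the striatum was 1.67 for Slit3, -0.82 for Slit2, 0.53 for Plxna2, -0.59 for Unc5b and -0.49 for Sema6a on the log2 scale. For Slit3 the effect was 1.46 ± 0.41 in the retina and -0.25 ± 0.13 in the striatum, and for Slit2 it was -0.56 ± 0.07 in the retina and 0.22 ± 0.17 in the striatum (SE, n = 3 pools per group). The 5 genes were 7.46% of the 67 tested, against 8.24% of all genes.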

How the results depend on the processing

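None of the genes called in a comparison reversed its direction in that comparison under any setting, whereas some named genes that were not called there did, among them Nrp1 and Nrp2 in both tissues, Sema5a and Slit1 in the striatum, Neo1 between tissues and Efna3 for the difference. Counts of guidance genes are given with the share of all genes in parentheses. In the retina, library totals in place of TMM gave 8 lower (8.71%) and 13 higher (23.4%), a single fit of all 12 libraries gave 3 higher (5.98%), and leaving out 1 library gave 8 to 15 lower (9.47 to 12.7%) and 2 to 8 higher (5.84 to 9.19%). DESeq2 did not call Slit1, Slit3, Sema3b, Sema4a, Sema6a, Efna3 or Unc5c in the retina, where it called 10.8% of all genes lower and 7.65% higher. In the striatum, DESeq2 gave 7 lower (4.81%), the single fit 7 lower (5.3%), and leaving out 1 library 0 to 7 lower (0.00602 to 7.25%) and 0 to 4 higher (0 to 4.32%). Leaving out both libraries numbered 2, a choice made after seeing the data, gave 13 lower (10.2%) and 5 higher (6.21%). For the difference between tissues, DESeq2 gave 5 higher (4.27%), limma-voom 1 lower (4.32%) and 1 higher (2.8%), library totals 1 lower (3.53%), a non-robust spread 4 higher (3.38%), and leaving out 1 library 1 to 4 lower (2.84 to 7.01%) and 1 to 6 higher (2.06 to 5.76%). Leaving out both striatal libraries numbered 2 gave 5 lower (7.24%) and 6 higher (6.54%). The cause of these shifts was not tested. With the replicate block, the striatum had 7 lower (7.11%) and 1 higher (2.83%), the retina 14 lower (12.9%) and 7 higher (9.81%), the difference 3 lower (4.04%) and 3 higher (3.09%), and the tissue comparison 45 lower (38.3%) and 11 higher (37.9%). In the retina the replicate number did not pair the libraries. The tissue counts stayed between 42 and 47 lower (36.4 to 39.8%) and between 9 and 12 higher (35.1 to 39.8%) in all settings. Genes of few counts, such as Slit3 and Ntn1 in the retina, were limited by depth.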
